A study of Mus musculus with 5 samples.

Results

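The region that holds Cdkn2a and Cdkn2b on mouse chromosome 4 was examined for H3K27me3 peaks in the molar mesenchyme. Its members were all peaks of the 3 deposited lists that lay in chr4:89269471-89316039 (GRCm38, GENCODE M21), that is both gene bodies, 5 kb on each side and the stretch between them, 46569 bp in all. There were 19 members among 22757 peaks of replicate 1 against input, 22 among 24881 peaks of the same library against IgG, and 15 among 33379 peaks of replicate 2 against input. Together these made 56 of 81017 listed peaks, and the lists of replicate 1 share 1 ChIP library.

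Chromatin immunoprecipitation and sequencing had been performed on molars of C57BL/6 wildtype mice at postnatal day 3, after the epithelium was removed, so the tissue was all mesenchyme that remained and not a sorted cell type. The 5 libraries were 2 with an H3K27me3 antibody, 2 inputs and 1 with IgG, all of the same genotype, strain and age, and no mutant or treated group was analysed here. The labels do not say whether the libraries came from separate animals or pools, so each SD is the spread between 2 libraries. The H3K27me3 libraries held 30369351 and 49947919 tags after filtering, with tag lengths of 49 and 74 bases, and the effects of depth, tag length and replicate cannot be told apart. No expression data were used, so the tissue label could not be checked against marker genes, and a mark on more cells cannot be told apart from more mark per cell. With 2 libraries of 1 condition no test over samples was possible, and all values are descriptions.

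H3K27me3 is placed by Polycomb repressive complex 2, whose methyltransferase is Ezh2, and is known for its presence at silent genes. Cdkn2a encodes 2 unrelated proteins from alternative first exons that are spliced to the same exon 2 and read in different frames. The Ink4a first exon gives p16Ink4a and Cdkn2b gives p15Ink4b, both of which inhibit the kinases Cdk4 and Cdk6 and so keep the retinoblastoma protein active. The Arf first exon gives p19Arf, which binds Mdm2 and stabilises p53. The locus is a known target of Polycomb repression, which holds back cell cycle arrest in dividing cells, and the study examined this mark at Cdkn2a in its work on Ezh2 in the tooth root. All 3 first exons are read from the minus strand, in the order Cdkn2b, Arf, Ink4a.

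The Arf start lay 16386 bp after the Cdkn2b start, and the Ink4a start lay 12461 bp after the Arf start. The 160 bases before each start are shown because the peaks fell differently on the 3 starts. All sequences are GRCm38, minus strand, 5′ to 3′, and capitals mark CpG dinucleotides.
Arf upstream (chr4:89294654-89294813): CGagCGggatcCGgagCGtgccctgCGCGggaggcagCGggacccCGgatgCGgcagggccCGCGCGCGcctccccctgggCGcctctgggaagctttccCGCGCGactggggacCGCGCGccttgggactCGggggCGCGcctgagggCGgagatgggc
Ink4a upstream (chr4:89282193-89282352): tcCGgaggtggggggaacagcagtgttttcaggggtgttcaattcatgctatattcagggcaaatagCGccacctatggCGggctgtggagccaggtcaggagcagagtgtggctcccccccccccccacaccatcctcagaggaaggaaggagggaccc
Cdkn2b upstream (chr4:89311040-89311199): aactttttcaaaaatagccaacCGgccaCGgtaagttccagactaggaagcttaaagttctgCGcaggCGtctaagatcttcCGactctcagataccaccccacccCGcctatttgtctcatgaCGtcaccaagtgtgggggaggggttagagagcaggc
The Arf stretch held 24 CpG, the Cdkn2b stretch 7 and the Ink4a stretch 3. The Ink4a stretch also held an unbroken run of 13 cytosines. In the 300-base RefSeq promoter windows (GRCm38.p6, 250 bases before and 50 after the RefSeq start), Arf had 45 CpG, Cdkn2b 18 and Ink4a 12. Of 32851 such windows, 98.1% held fewer CpG than that of Arf, 70.3% fewer than that of Cdkn2b and 60.4% fewer than that of Ink4a, with a median of 7.

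A few further stretches are shown because overlap between the lists turned on them: the replicate 2 peak within the Arf first exon, and the stretches of the Arf to Ink4a intron and of the flank after Cdkn2a that all 3 lists covered.
Arf exon peak (chr4:89294367-89294437): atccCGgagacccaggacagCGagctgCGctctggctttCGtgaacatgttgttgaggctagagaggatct
Intron stretch (chr4:89291181-89291310): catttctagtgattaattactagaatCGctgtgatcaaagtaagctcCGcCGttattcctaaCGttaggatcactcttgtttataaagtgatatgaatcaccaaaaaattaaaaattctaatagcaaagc
Flank stretch (chr4:89272547-89272630): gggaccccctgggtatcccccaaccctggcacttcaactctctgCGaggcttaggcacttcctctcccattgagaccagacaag
The Arf exon peak was coding sequence over all of its 71 bases and held 4 CpG. The intron stretch had a GC content of 32.3%, and the flank stretch of 59.5%.

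Peaks were crowded over the region in every list. A mean of 17 ± 2.83 peaks (SD, n = 2) lay in it, and they covered 7.18% ± 1.10 of its bases (SD, n = 2). The lists of replicate 1 gave 7.96% with input and 9.48% with IgG as the control, and that of replicate 2 gave 6.41%. All 3 lists had peaks over both genes, and most bases of the region lay outside the peaks of each list.

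The genome was cut into 56870 adjacent windows of the same length as a background. These windows held a mean of 0.401, 0.439 and 0.589 peaks in the lists of replicate 1 against input, replicate 1 against IgG and replicate 2, so the region held 47.4, 50.1 and 25.5 times the mean. At least as many peaks as in the region were found in 28 windows (0.0492%) of replicate 1 with input, in 24 (0.0422%) with IgG and in 9 (0.0158%) of replicate 2. In 7 windows (0.0123%) this held for both replicates against input. The highest window had 37, 48 and 23 peaks in the 3 lists, and 24.2%, 25.2% and 41% of windows held any peak.

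**Figure D1:**
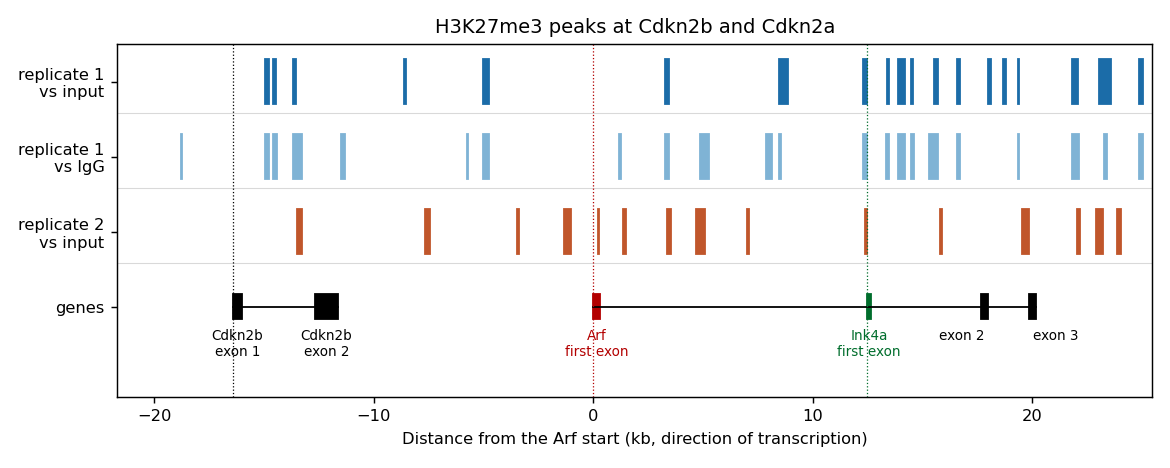
Peaks of the 3 lists (bars, drawn to scale) and the exons of Cdkn2b and Cdkn2a against distance from the Arf start in kb, in the direction of transcription, with dotted lines at the Cdkn2b, Arf and Ink4a starts. Each list has a peak over the Ink4a start, only replicate 2 has a peak in the Arf first exon, and no list has a peak in the Cdkn2b first exon.

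The Ink4a start was under a peak in all 3 lists. The peak spanned chr4:89282159-89282352 in replicate 1 with input (194 bp), chr4:89282162-89282348 with IgG (187 bp) and chr4:89282159-89282271 in replicate 2 (113 bp). Of these bases, 160, 156 and 79 lay before the start and 34, 31 and 34 in the first exon, all of the latter in the untranslated part. The peaks as called thus sat on the start itself and reached into the upstream stretch shown above, not into the coding part of the exon. The modelled fragment lengths of 46 and 71 bases were below the tag lengths of 49 and 74 bases. The peak ends are those called with that setting, and the reach of the mark beyond them was not tested.

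The Ink4a peaks were not among the strong peaks of every list. The fold enrichment, the ratio of tags in the peak to the control background, came to 2.87 in replicate 1 with input and 2.59 with IgG as the control, and to 2.57 in replicate 2. Within their lists these values were higher than those of 82.1%, 8.71% and 76.0% of peaks. The −log10 p was higher than that of 2.89%, 53.2% and 74.8% of peaks. A mean of 4.74, 4.995 and 6.48 tags overlapped each base, which amounts to about 20.01, 20.3 and 10.3 tags per peak at the modelled fragment lengths of 46 and 71 bases. The genome-wide background was 0.747 tags in replicate 1 and 1.90 in replicate 2, before scaling. Repeat-masked sequence made up 29.4%, 28.3% and 46.0% of the peak bases, against 24.2% of the region, and its part in the result was not tested.

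A peak over the first base was rare among annotated starts. Of 54327 distinct starts of protein-coding transcripts, 143 (0.263%) were under a peak of replicate 1 with input as the control, 180 (0.331%) with IgG, and 200 (0.368%) under a peak of replicate 2. For both replicates against input it was 7 starts (0.0129%), and in all 3 lists 5 starts (0.0092%). Besides Ink4a these 5 were the starts of Kcnk9, H2-Q1, Barhl1 and Emx1, and a pair of Elavl3 starts made up the 7. These genes, and the Ink4a start among them, were singled out after their values were seen. Barhl1 and Emx1 encode homeobox transcription factors, Kcnk9 a potassium channel, H2-Q1 a nonclassical histocompatibility protein and Elavl3 a neuronal RNA-binding protein.

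The Arf start differed from the Ink4a start in the same libraries. The nearest peak ended 3282 bp downstream in replicate 1 against input and 1161 bp downstream against IgG, and in replicate 2 it lay 216 bp downstream, within the Arf first exon. That peak was the Arf exon peak shown above, with a fold enrichment of 2.56 and a mean of 6.42 tags, and it covered 22.2% of the 320 bp exon. Replicate 1 had no peak in the exon with either control. The widest stretch without a peak in replicate 1, 8022 bp against input and 5896 bp against IgG, spanned the Arf first exon. The peak calls of the 2 replicates therefore differed at the Arf exon. The mean tags of the replicate 2 peak lay near the lowest of its list, which was 6. Outside the region, 2.84% of replicate 1 peaks against input and 1.89% of replicate 2 peaks were overlapped by the other replicate. A missing call is thus not read as an absent mark.

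The Cdkn2b start had no peak within 1 kb in any list. The nearest peak lay 1457 bp downstream in replicate 1 with either control and 2884 bp downstream in replicate 2, in each case in the Cdkn2b intron. Over all protein-coding starts, 3.54% had a peak within 1 kb in replicate 1 against input, 3.99% with IgG as the control and 3.6% in replicate 2, while 0.871% had a peak in both replicates against input, and 0.664% in all 3 lists. Of the 3 starts of the region, Ink4a alone had peaks within 1 kb in all 3 lists (2, 2 and 1), Arf had 0, 0 and 1, and Cdkn2b had none.

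Peak coverage within 2 kb of each start also ran in different orders in the replicates. Around Ink4a it came to 14.8% and 15.5% in replicate 1, with input and with IgG, and to 2.82% in replicate 2. Around Arf it was 0%, 2.87% and 12.2%. Around Cdkn2b it was 7.32%, 8.15% and 0%. In replicate 1 Ink4a was thus the most covered start and Arf the least covered with either control, and in replicate 2 Arf was the most covered. The order of the starts by coverage was not shared by the replicates.

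Most of the peak bases lay in introns and flanks. Over the gene bodies alone, peaks covered 9.48%, 11.9% and 6.92% of Cdkn2a in the lists of replicate 1 against input, replicate 1 against IgG and replicate 2 (8.20% ± 1.81, SD, n = 2, against input), with 11, 12 and 8 peaks. They covered 8.88%, 15.4% and 5.36% of the Cdkn2b body (7.12% ± 2.49, SD, n = 2), with 3, 3 and 1 peaks. Against input the Cdkn2a body was covered over more of its length than the Cdkn2b body in both replicates, by less than the SD of either gene, and with IgG as the control it was covered over less. With flanks of 5 kb included, Cdkn2a stood above Cdkn2b in every list, at 10.6%, 11.1% and 8.28% beside 3.28%, 6.57% and 3.29%.

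Within Cdkn2a, the intron between the Ink4a first exon and exon 2 was covered over 16.4% (input) and 22.8% (IgG) in replicate 1 and over 1.88% in replicate 2. The longer intron between the Arf and Ink4a first exons was covered over 5.96%, 9.65% and 7.40%, a much narrower range. The intron between exons 2 and 3 was covered over 17.9%, 3.48% and 16.0%. Exon 2, which both proteins share, held a single peak base in replicate 1 against input and none in the other lists, and exon 3 held none. The flank after the Cdkn2a end was covered over 20.3%, 13.8% and 13.7%, with 3 peaks in each list. The flank before Cdkn2b was covered over 0%, 1.08% and 0%, so the ends of the region differed in every list.

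In Cdkn2b the intron was covered over 12.6%, 21.8% and 7.58% and the last exon over 0% in each list. The stretch between the genes was covered over 3.08%, 4.55% and 5.57%. Of the coding exons of the region, the Arf first exon in replicate 2 was thus the one with more than a single coding base under a peak.

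**Figure D2:**
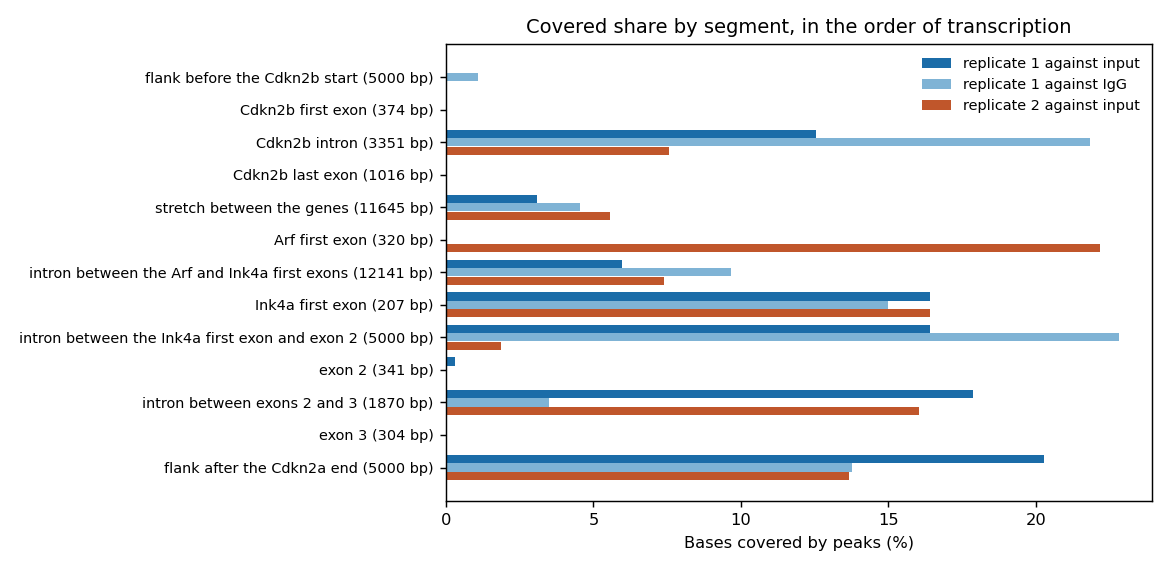
Percent of bases covered by peaks in each segment of the region, in the order of transcription, with 1 bar for each list. The flank after Cdkn2a stands at 13.7% to 20.3% in all lists, whereas the intron after the Ink4a first exon stands at 16.4% and 22.8% in replicate 1 and at 1.88% in replicate 2.

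Peak bases, most of them in introns and flanks, held fewer CpG than the first exons in every list. Compared with the whole region they held fewer in replicate 1 and slightly more in replicate 2. The first exons of Arf, Ink4a and Cdkn2b held 8.13, 9.66 and 10.4 CpG per 100 bases, and the whole region 1.75. Peak bases held 0.917 CpG per 100 in replicate 1 (0.929 with IgG) and 1.88 in replicate 2. The GC content of peak bases was 44.1%, 43.1% and 47.6%, beside 43.5% for the region. Repeat-masked bases made up 34.7%, 27.4% and 23.9% of peak bases.

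The peaks were narrow as called, with modelled fragments shorter than the tags, and their enrichment was modest. The median length was 165, 172.5 and 197 bp in the lists of replicate 1 against input, replicate 1 against IgG and replicate 2, and the medians of the whole lists were 119, 120 and 181 bp. Fold enrichment ranged from 2.54 to 3.09, from 2.56 to 3.20 and from 2.39 to 3.23. The region's medians of 2.67, 2.75 and 2.56 stood beside list medians of 2.63, 2.66 and 2.45, and 11 of 19, 14 of 22 and 10 of 15 peaks lay above the list median. The region thus stood far from the mean window in the number of peaks, while its median fold enrichment lay close to that of the list.

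Few members passed a stricter threshold. A fold enrichment of 3 or higher was reached by 1 of 19 members in replicate 1 with input (8.96% of the list), 5 of 22 with IgG (10.7%) and 1 of 15 in replicate 2 (1.56%). A −log10 p of 3 or higher was reached by 0 of 19 (3.27% of the list), 4 of 22 (11.3%) and 2 of 15 (11%). No member reached a q-value of 0.05 in the deposited −log10 q column, nor did any peak of the replicate 1 lists, and 4 peaks of the replicate 2 list did.

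The strongest member of the replicate 2 list was a peak in the flank after Cdkn2a, chr4:89271409-89271731 (323 bp). Its fold enrichment was 3.23, its mean tags 8.36 and its −log10 p 4.11, and its fold enrichment was above that of 99.7% of the list. Replicate 1 against input also had a peak there, which overlapped it by 189 bp. The highest fold enrichment of replicate 1 against input was 3.09, at chr4:89309094-89309221 in the Cdkn2b intron, and against IgG it was 3.20, at chr4:89281196-89281313 in the intron after the Ink4a first exon. By fold enrichment the highest peak thus lay in a different place in each list. By mean tags, the highest peak of both replicate 1 lists was the one that starts at 89281196 (5.50 tags with input and 5.12 with IgG, from the same ChIP library).

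**Figure D3:**
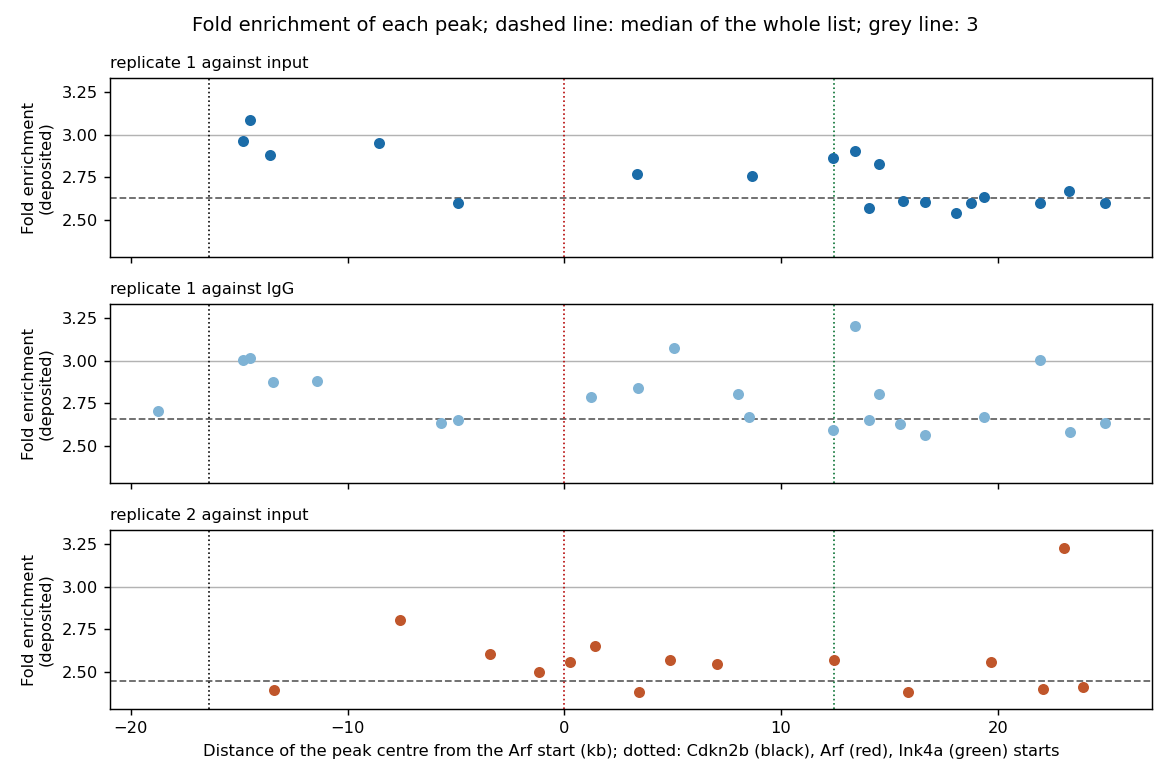
Deposited fold enrichment of each member peak against the distance of its centre from the Arf start in kb, with 1 panel for each list, a dashed line at the median of the whole list and a grey line at a fold enrichment of 3. Most points lie between 2.39 and 3.00, and replicate 2 has 1 point at 3.23 in the flank after Cdkn2a.

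Few of the peaks were called at the same place in both replicates. Of the 19 replicate 1 peaks against input, 4 (21.1%) were overlapped by at least 1 base of a replicate 2 peak, and 4 of the 15 replicate 2 peaks (26.7%) by a peak of replicate 1. In the rest of the lists these shares were 2.84% and 1.89%. Against IgG, 5 of 22 peaks (22.7%) were overlapped by replicate 2, compared with 3.31% in the rest of that list. The region also held more peaks per kb than the rest of the lists, and the part of that density in the overlap was not tested. Between the 2 controls of replicate 1, which share the ChIP library, 16 of 19 peaks against input (84.2%) and 16 of 22 against IgG (72.7%) overlapped.

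The bases covered in both replicates against input came to 516, which was 13.9% of the peak bases of replicate 1 and 17.3% of those of replicate 2. They lay in 4 stretches. The intron stretch of 130 bp between the Arf and Ink4a first exons, shown above, was covered over its whole length by the IgG list as well. The stretch over the Ink4a start had 113 bp, of which 110 were also in the IgG list. The flank stretch of 84 bp, shown above, was covered whole by the IgG list. The stretch of 189 bp at chr4:89271409-89271597 was not covered in the IgG list.

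When overlapping peaks of the 3 lists were merged, 34 sites resulted. Of these, 5 held peaks of all 3 lists, 11 held peaks of replicate 1 with both controls but not replicate 2, and 9 held replicate 2 peaks alone. A further 3 were in replicate 1 against input alone, 5 against IgG alone and 1 against IgG and in replicate 2. Replicate 2 thus shared 6 of its sites with replicate 1 under either control. A site that held peaks of all 3 lists did not need each pair of them to overlap. At chr4:89307902-89308317 the peaks of replicate 1 against input and of replicate 2 did not overlap. At chr4:89271077-89271731 those of replicate 1 against IgG and of replicate 2 did not.

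The flank stretch lay over the start of a noncoding RNA gene. Gm12606, a lincRNA on the minus strand with no role given here, starts at position 89272587 (transcript ENSMUST00000129527.7), which was under a peak in all 3 lists. Of 8096 distinct lincRNA starts, 31 (0.383%), 40 (0.494%) and 52 (0.642%) were under a peak in the lists of replicate 1 against input, replicate 1 against IgG and replicate 2, and this start was the only one under a peak in all 3 (0.0124%). It was singled out after its values were seen. The other annotated start of the gene, at 89273403, had its nearest peak 551 bp away in both replicate 1 lists and 773 bp away in replicate 2. A RefSeq noncoding gene on the plus strand, Gm12610, starts 527 bp before the Arf start, and its nearest peaks lay 3809, 1688 and 501 bp away.

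Beyond the region the peaks thinned out. Over 500 kb on each side, the side of Mtap held 10, 8 and 11 peaks in the 3 lists and the side of Dmrta1 held 7, 7 and 5. That was 0.20, 0.16 and 0.22 peaks per 10 kb on the first side and 0.14, 0.14 and 0.10 on the second, against 4.08, 4.72 and 3.22 within the region. On the Dmrta1 side, the next peak lay 121197 bp from the edge in replicate 1 (207551 bp with IgG) and 207313 bp from it in replicate 2. On the Mtap side it lay 1990, 1462 and 3697 bp away. The cluster thus ended near Cdkn2b and reached a little past the 5 kb flank after Cdkn2a.

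**Figure D4:**
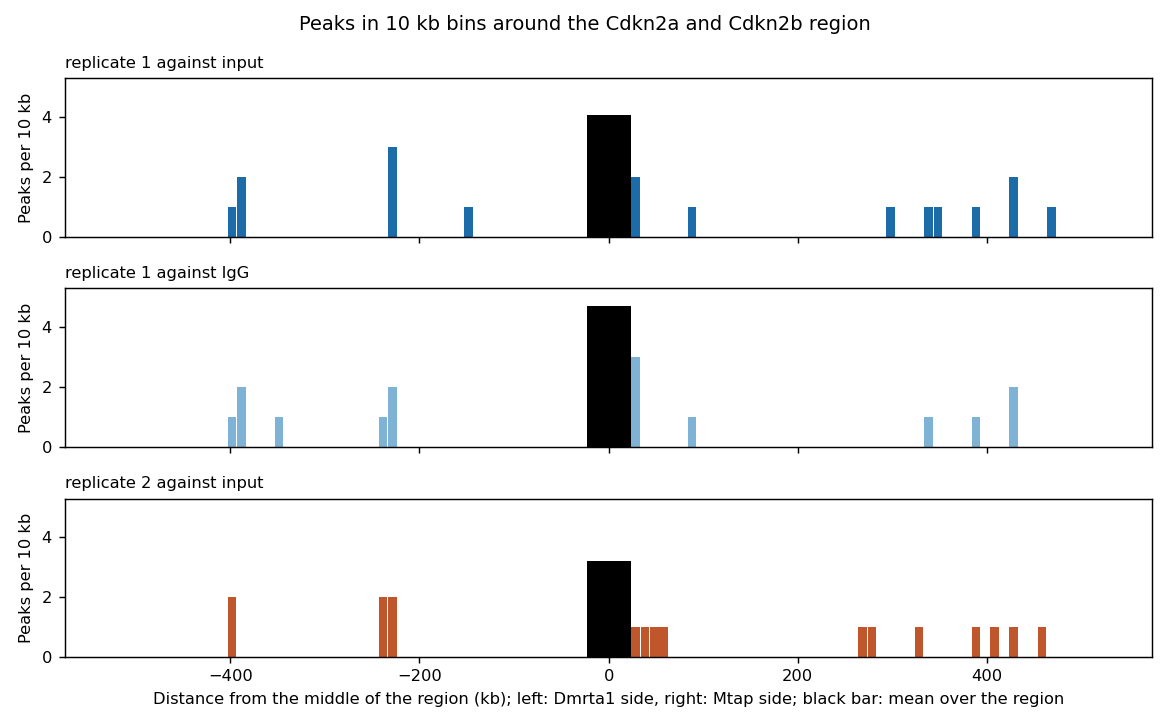
Peaks per 10 kb bin over 500 kb on each side of the region against distance from its middle in kb, with the mean density of the region as a black bar as wide as the region, and 1 panel for each list. No bin on either side holds more than 3 peaks, and the region's mean lies at 3.22 to 4.72.

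Neighbouring peaks 5 kb or less apart were joined into domains. The domain over Cdkn2a ran from 89267372 to 89286170 in replicate 1 against input (18.8 kb, 14 peaks) and from 89265489 to 89282271 in replicate 2 (16.8 kb, 7 peaks), a mean of 17.8 ± 1.43 kb (SD, n = 2). By length they ranked 77 of 17201 and 32 of 29543 domains. Against IgG the domain reached 26.1 kb, with 17 peaks. At this joining distance, the domain of both lists against input covered the Ink4a start and exons 2 and 3 and stopped short of the Arf first exon. That end turned on the distance chosen: gaps of 5010 bp (replicate 1) and 5258 bp (replicate 2) closed the domains, and with a joining distance of 10 kb the domains ran from 89259683 to 89309582 and from 89257747 to 89308155, across the Arf first exon. In the replicate 2 list it ended with the Ink4a peak itself. With IgG as the control it also stopped before the Arf first exon, at position 89293492.

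The nearest protein-coding neighbours differed from each other, and only Mtap was without peaks. Mtap, which encodes the methionine salvage enzyme methylthioadenosine phosphorylase and lies 93.4 kb from Cdkn2a, had no peak in any list. Dmrta1, a transcription factor gene 368 kb from Cdkn2b, had 3, 3 and 2 peaks, which covered 1.30%, 1.42% and 4.29% of its body and 5 kb flanks. On that scale Cdkn2b was covered over 3.28%, 6.57% and 3.29%, and the 2 replicates against input were alike in this total only (3.28% ± 0.00959, SD, n = 2). They had 4 and 2 peaks there, and none of the replicate 1 peaks against input overlapped one of replicate 2. With IgG as the control, a replicate 1 peak in the Cdkn2b intron (chr4:89307912-89308317) overlapped a replicate 2 peak by 244 bp. Dmrta1 was above Cdkn2b in replicate 2 and below it in replicate 1.

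None of the 6 other CDK inhibitor genes had a peak. Cdkn1a, Cdkn1b and Cdkn1c, whose proteins inhibit cyclin-dependent kinases in complex with cyclins, had 0 peaks in every list, flanks of 5 kb included. The same was true of Cdkn2c and Cdkn2d, which encode the other INK4 proteins, and of Cdkn3, a phosphatase gene. Over 21938 protein-coding genes, a peak was found for 25% in replicate 1 with input and 25.9% with IgG as the control, for 35.7% in replicate 2 and for 15.7% in both replicates. Most protein-coding genes thus had no peak either, and of the 8 CDK inhibitor genes examined Cdkn2a and Cdkn2b were those with peaks.

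Genes that act with or after the INK4 and Arf proteins are set beside the shares just given for all protein-coding genes (25%, 25.9% and 35.7% in the 3 lists, and 15.7% in both replicates). Of 11 targets of the INK4 proteins and genes of the retinoblastoma branch, 2, 1 and 2 had a peak in the 3 lists and 1 had peaks in both replicates. That gene was Cdk6, a kinase that p16Ink4a and p15Ink4b inhibit, with 4, 2 and 2 peaks over 0.273%, 0.0877% and 0.0997% of its bases. Of 4 genes of the p53 branch, 0, 0 and 2 had a peak, and Mdm2, the target of p19Arf, had none. Of 10 Polycomb and SWI/SNF regulators, 5, 3 and 3 had a peak and 1 had peaks in both replicates against input. This was Smarca4, the ATPase of the SWI/SNF complex, with 1 peak in each replicate and none against IgG, over 0.203% and 0.259% of its bases. The counts of 5 and 3 of 10 regulators in replicate 1, against input and against IgG, lay above the share of all genes. So did that of 2 of 4 p53 branch genes in replicate 2. In lists this short none of the counts is read as particular to the genes. In covered share Cdk6 and Smarca4 lay far below Cdkn2a.

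The 5 genes whose covered share in the 3 lists was nearest to that of Cdkn2a were Lhx5, Lhx1, Barhl2, Barhl1 and Foxe1. Likeness was the sum of the absolute differences over the 3 lists, which ran from 1.62 percentage points for Lhx5 to 2.20 for Foxe1. All 5 encode homeobox or forkhead transcription factors. Lhx5 was covered over 9.77%, 10.8% and 8.73%, and Cdkn2a over 10.6%, 11.1% and 8.28%. Lhx5 lay below Cdkn2a in replicate 1 and above it in replicate 2.

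**Figure D5:**
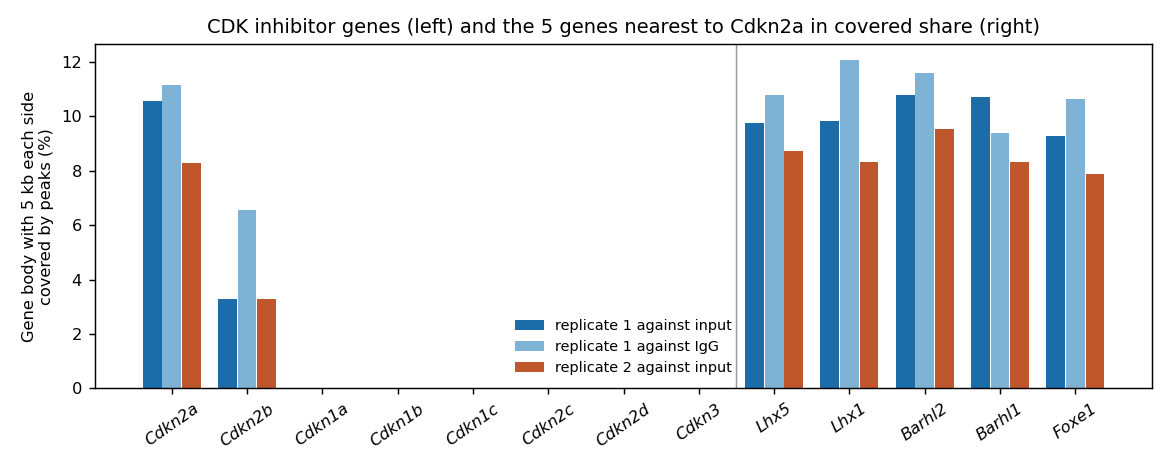
Share of each gene body plus 5 kb flanks that lay under peaks (percent), for the 8 CDK inhibitor genes and for the 5 genes nearest to Cdkn2a in covered share, with 1 bar for each list. Cdkn2a stands at 8.28% to 11.1% and Cdkn2b at 3.28% to 6.57%, and the other 6 inhibitor genes are at 0%.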

How the data were processed

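H3K27me3 ChIP-seq was performed on molar mesenchyme with the Chromatrap Enzymatic Shearing Kit. Per the study's methods, reads were mapped to GRCm38 with BWA, sorted with SAMtools, and uniquely mapped reads were used for calling with MACS2 2.1.1 in broad mode at a p-value of 0.005. Replicates were not pooled. In the deposited lists, the pileup is a signal that counts the tags over each base, averaged across the peak. Where the ChIP library was the larger of a pair, the authors' pileup had been scaled to the control, and mean tags are this pileup divided by that scale. The deposited fold enrichment is a ratio of pileup to control background with a pseudocount of 1, so it depends on depth and was compared within lists only. The p-values and q-values were deposited as −log10.

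Peak positions were intersected with GENCODE M21 exons, counted from 1, with Python 3.11.15, pandas 2.3.3, numpy 2.4.6 and pysam 0.24.0, and figures were drawn with matplotlib 3.10.9. An overlap took 1 base. Sequences, CpG and repeat-masked bases were read from RefSeq GRCm38.p6. Interval code was tested on simulated data. Gene names followed a fixed rule: the members, other genes annotated in the region, the nearest protein-coding neighbours, the 6 other CDK inhibitors, genes of the other lists with peaks in both replicates, and the 5 genes nearest to Cdkn2a in covered share. The members and lists were chosen with earlier results of these data known. The alternatives were stricter fold and p thresholds, the IgG control, other flanks, overlap rules and joining distances, a replicate 2 list of the same size as that of replicate 1, and leaving out a replicate. Chance tests were not run.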

Additional observations from a re-analysis of the deposited data

How the results depend on the processing

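The mean of 17 peaks and the covered share of 7.18% moved most with the threshold. With only fold enrichments from 3 upwards kept, the mean was 1 peak, the share 0.484%, the bases covered in both replicates 0 and the overlapped replicate 1 peaks 0 of 1. At a −log10 p of 3 or higher, the mean was 1 peak (0 in replicate 1 and 2 in replicate 2), the share 0.595% and the shared bases 0. In the IgG list, 5 and 4 of 22 members passed these thresholds. Most members thus passed neither, and the density of the region relative to other windows was not computed at them. The 516 shared bases became 804 with IgG as the control of replicate 1, 243 without flanks and 302 with a replicate 2 list of equal size. The 4 overlapped replicate 1 peaks became 2 when at least 50% of the replicate 1 peak had to be covered, and 7 when a replicate 2 peak within 500 bp was enough. The mean domain of 17.8 kb became 50.2 kb with a joining distance of 10 kb, and 21.5 kb with IgG as the control of replicate 1. With 1 kb the mean was 2.40 kb, but it averaged stretches that did not overlap. In replicate 1 against input the stretch was chr4:89277946-89282352 (4.41 kb, 6 peaks). In replicate 2 it was 1 unjoined peak at chr4:89289570-89289953 (0.384 kb), so no domain was common to the replicates at 1 kb. The alternatives other than IgG changed by construction which peaks, bases, overlaps or joins were counted. For IgG the cause of the change was not tested. Leaving out either replicate gave 15 to 19 peaks, a share of 6.41% to 7.96% and a domain of 16.8 to 18.8 kb. The other alternatives moved the values by less than the spread between replicates or, for counts, by less than 1.5 times. No paired analysis was possible because only 2 H3K27me3 libraries of 1 condition were compared and no result came from a test. A peak needed at least about 4 overlapping tags in replicate 1 and 6 in replicate 2, so weaker H3K27me3 was not detectable at this depth.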
